A study of Mus musculus with 43 samples.

Results

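The lungs described here came from mice given house dust mite extract (HDM) for 19 weeks together with an isotype control antibody, which serves as the antibody control for the blocking antibodies of the study. The isotype lungs were chosen by their labels and number 7 of the 43 libraries in the series. They were set against 5 libraries from mice given saline and no antibody, so 12 libraries enter the main comparison. A further group of 7 libraries, from mice given HDM for 19 weeks with no antibody, is the most similar one in its treatment and is used for a second comparison. Per the design text, all mice were females aged 8 to 12 weeks, hybrids of 129S6 and C57BL/6, and HDM went into the nose 3 times a week. The mice used for testing the antibodies carried human sequence in place of mouse Il4, Il33 and the ectodomain of Il4ra. The labels do not say whether the saline mice carried these alleles, how long saline was given, or at which of the starting points named in the design text the isotype antibody began. The labels number the libraries without saying that each is a separate animal, so p-values measure the spread between these samples, which may be technical.

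HDM contains proteases and microbial products that act on the airway epithelium. The epithelium releases alarmins such as IL-33 and TSLP, which stimulate innate lymphoid cells and T helper 2 cells to make IL-4, IL-5 and IL-13. IL-13 acts through IL-4Rα and the transcription factor STAT6, and turns club cells into mucus-making goblet cells and macrophages into an alternatively activated state. Long exposure is known to thicken the airway wall and to change the matrix between the alveoli.

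RNA from whole lungs was sequenced and counted per gene. Values are CPM, the counts of a gene scaled to a common library total with TMM factors. For the isotype lungs the 3 values given are the lowest, the median and the highest of 7, while all 5 saline values are given in the order of replicates 1 to 5. Libraries held 16606448.0 to 21783895.0 counts in the isotype group, against 14043243.0 to 23280805.0 counts in the saline group. Sftpc, a surfactant gene that defines alveolar type 2 cells, was at 9752, 13084 and 15684 CPM in the isotype lungs, against 11800, 9592, 9668, 9202 and 6740 CPM in the saline lungs, which fits the labelled tissue. Il4 had 0 counts in all 12 libraries. One saline library, replicate 3, stood apart: its squamous epithelium genes summed to 12908 CPM and its skeletal muscle genes to 1740 CPM, against 4.74 to 7.78 CPM and 2.40 to 4.69 CPM in the other saline lungs. Isotype replicate 8 held the same kinds of genes at lower levels, with 183 CPM of squamous and 72 CPM of skeletal muscle genes, against 1.27 to 2.32 CPM and 2.62 to 4.22 CPM in the other isotype lungs. Libraries also differed in how their levels followed the GC content of the transcripts. The slope of a library's log2 deviation on transcript GC, per 10 percentage points, averaged -0.13 ± 0.278 in the isotype lungs and -0.632 ± 0.18 in the saline lungs (SD, n = 7 and 5), a difference of 0.502 (exact permutation test, 2-sided, p = 0.00505). Between isotype and saline lungs, the median log2 fold change was -0.30 among the genes lowest in GC, 0.02 among those in the middle and 0.36 among the highest, when genes were split by GC into 3 equal sets.

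Which genes set the isotype lungs apart from saline lungs was asked over 15979 genes with edgeR's quasi-likelihood test and Benjamini-Hochberg adjustment. At an adjusted p under 0.05, 2073 genes (13.0% of those tested) were higher in the isotype lungs and 1977 (12.4%) were lower, with a median log2 fold change of 0.01 over all genes. Of these, 1473 (9.22%) were higher and 1449 (9.07%) lower by at least 2-fold. The 12 libraries fell into separate ranges with no overlap for 2155 higher genes (13.5%) and 2207 lower genes (13.8%). Fitted with only the 12 libraries of these groups, the counts were 3999 higher and 4079 lower, and with GC slope held in the fit over all groups they were 3032 and 2905. Log2 fold changes are isotype minus saline, given ± SE. The shares 13.0% and 12.4% are the background against which the counts of each gene list are to be read. In every list, fewer cells of a type and less RNA per cell cannot be told apart, since the samples are whole lung. Lists can share members, as with Mmp12 among macrophage genes and metalloproteinases, so their counts are not independent.

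**Figure D1:**
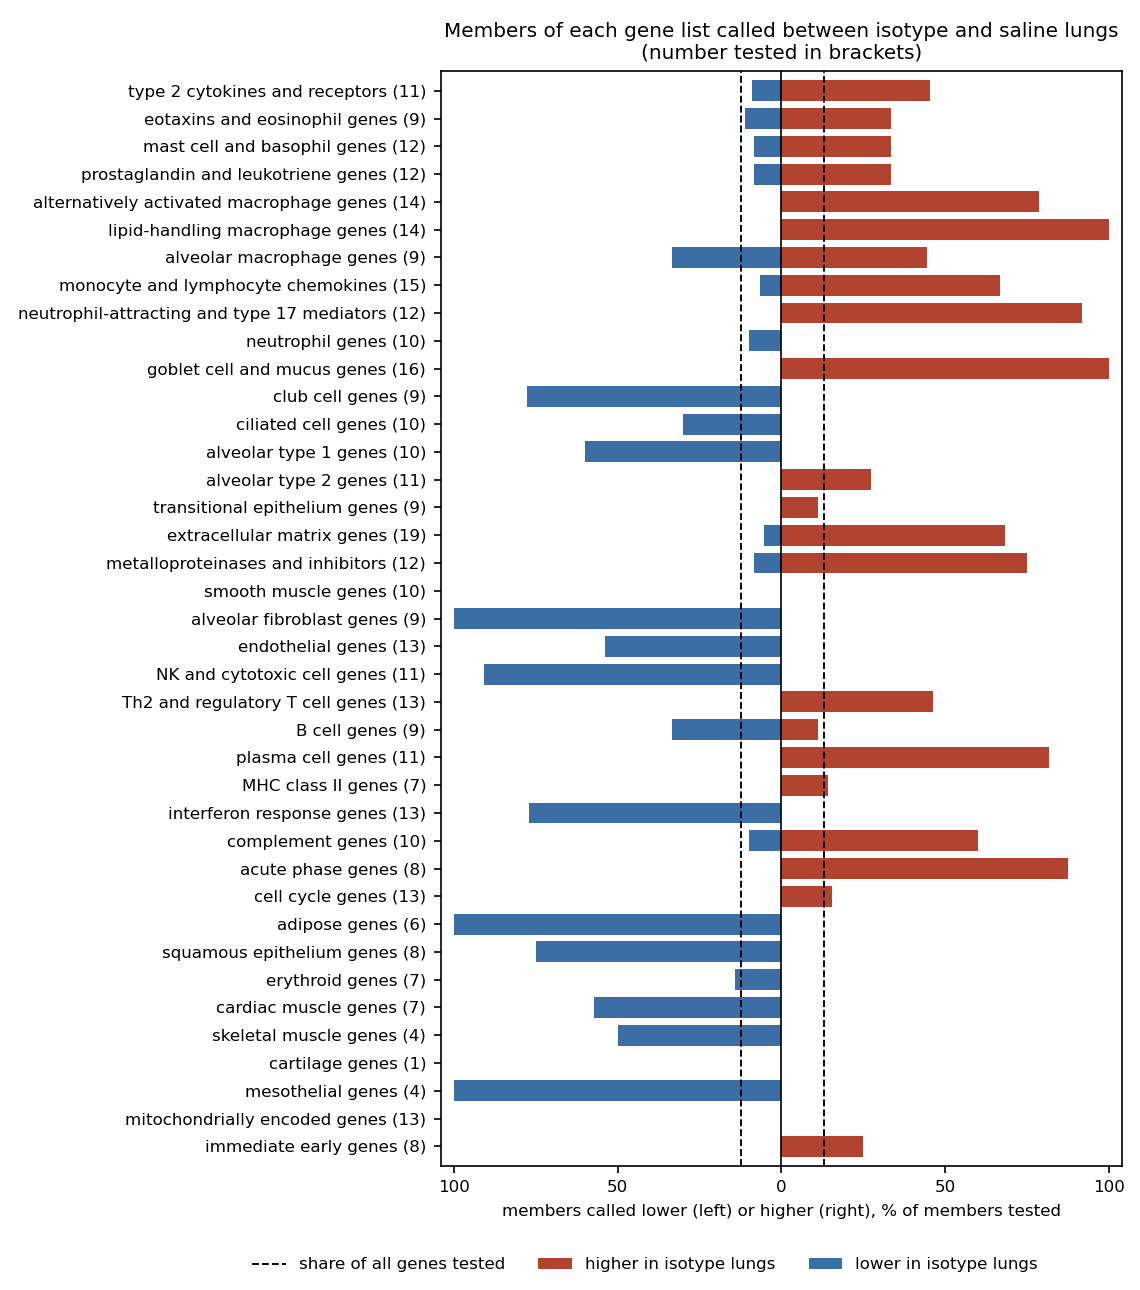
Share of the tested members of each gene list that were called higher (right, red) or lower (left, blue) in the isotype lungs relative to the saline lungs, in percent of the members tested, whose number stands in brackets. Dashed lines mark the shares over all genes tested, 13.0% and 12.4%. All 16 mucus genes and all 14 lipid-handling macrophage genes were called higher, and all 9 alveolar fibroblast genes were called lower.

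Of the genes that drive type 2 inflammation, 5 of 11 tested rose in the isotype lungs and 1 fell. Il13, the cytokine that induces mucus and airway narrowing, was at 0.728, 1.59 and 4.03 CPM in the isotype lungs, against 0, 0, 0.0345, 0.0389 and 0 CPM in the saline lungs. The 2 groups did not overlap, and the saline libraries held 2 counts in all, so that the ratio of 129 has a 95% counting interval of 35.4 to 1071 (log2 fold change 6.55 ± 0.80, adjusted p = 5.61e-08). Il5, which supports eosinophils, was at 0.23, 0.41 and 0.663 CPM against 0, 0.0551, 0.242, 0.117 and 0.033 CPM in saline, and did not pass the test (log2 fold change 2.05 ± 0.84, adjusted p = 0.0666). Among the alarmins, Tslp was at 0.863, 1.23 and 1.41 CPM in the isotype lungs and 3.26, 2.81, 1.93, 3.62 and 4.59 CPM in the saline lungs. It fell below all saline lungs in every isotype lung (log2 fold change -1.46 ± 0.35, adjusted p = 0.00149). Il33 was at 11.7, 19.1 and 25.3 CPM in the isotype lungs, against 13.7, 12.9, 9.98, 13.3 and 12.1 CPM in saline lungs, with overlapping ranges (log2 fold change 0.59 ± 0.43, adjusted p = 0.335). The effect of the human sequence on counts of Il4, Il33 and Il4ra was not tested.

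Receptor genes on this list were higher. Il1rl1, the IL-33 receptor, was at 17.9, 25.4 and 30.6 CPM in the isotype lungs, against 5.38, 6.11, 5.98, 4.39 and 4.03 CPM in the saline lungs (log2 fold change 2.29 ± 0.55, adjusted p = 0.00162). Crlf2, the TSLP receptor, was at 14.7, 33.8 and 40.8 CPM in the isotype lungs, against 3.02, 4.24, 6.18, 3.42 and 3.6 CPM in saline (log2 fold change 2.79 ± 0.75, adjusted p = 0.0047). Every isotype lung was above every saline lung in both genes. Il13ra2, a decoy receptor that binds IL-13, was at 1.35, 1.97 and 4.21 CPM in the isotype lungs and 0.096, 0, 0.242, 0 and 0.033 CPM in saline lungs (log2 fold change 4.73 ± 0.83, adjusted p = 3.71e-05), and without saline replicate 3 its log2 fold change was 5.87. The signalling receptor Il4ra was at 128, 193 and 303 CPM in the isotype lungs, against 86, 106, 92.7, 101 and 114 CPM in saline. Its groups did not overlap, yet it missed the threshold (log2 fold change 1.03 ± 0.43, adjusted p = 0.0722). Areg, an epidermal growth factor family member released by type 2 cells, also rose (log2 fold change 1.71).

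Eotaxin and eosinophil genes did not move together: of 9 tested, 3 were higher and 1 was lower. Ccl11, the chemokine eotaxin, was at 22.6, 35.7 and 67 CPM in the isotype lungs, against 1.78, 0.992, 8.57, 1.71 and 1.55 CPM in the saline lungs. Every isotype lung was above every saline lung (log2 fold change 3.79 ± 0.50, adjusted p = 3.26e-07), and without saline replicate 3 the log2 fold change was 4.73. Ccl24, a second eotaxin, ranged over 1.15, 4.93 and 19.4 CPM in the isotype lungs, against 1.82, 0.936, 4.94, 0.972 and 0.231 CPM in saline, and did not pass the test (log2 fold change 2.24 ± 0.98, adjusted p = 0.0892). Prg2, the major basic protein of eosinophil granules, was at 4.5, 5.07 and 7.4 CPM in the isotype lungs and 1.3, 0.826, 4.46, 0.272 and 0.33 CPM in the saline lungs (log2 fold change 1.95 ± 0.47, adjusted p = 0.00181), with a log2 fold change of 3.05 without saline replicate 3. Ear1, an eosinophil-associated ribonuclease, fell to 2.07, 2.64 and 3.86 CPM in the isotype lungs, against 28.6, 26.3, 17.3, 24.1 and 11.4 CPM in saline, with no overlap (log2 fold change -2.95 ± 0.51, adjusted p = 3.17e-05). Ear6, the third member called higher, ran over 0, 0.23 and 9.38 CPM in the isotype lungs, against 0.288, 0, 0.0345, 0 and 0.033 CPM in saline. Its ranges overlapped (log2 fold change 5.08 ± 1.77, adjusted p = 0.03). The call of Ear6 was lost without isotype replicate 6 or 9 or saline replicate 2, 3, 4 or 5 (adjusted p 0.0592 to 0.0754). Ear1 and the Mcpt genes have near-identical relatives, with which their reads may be shared. Of the mast cell and basophil genes, 4 of 12 rose and 1 fell. The median log2 fold change was -0.93, with 5 of the 12 above 0. Without saline replicate 3 the median was 0.15, with 7 above 0, and 3 rose and 1 fell. No direction is given for the list. The mucosal mast cell proteases Mcpt1 and Mcpt2 rose (log2 fold changes 5.03 and 5.73), while the connective tissue protease Mcpt4 was at 0.156, 0.826 and 2.59 CPM in the isotype lungs, against 1.3, 0.496, 10.2, 1.17 and 0.495 CPM in saline (log2 fold change -1.46 ± 0.91, adjusted p = 0.25). Mcpt4 was not called, and its log2 fold change was 0.19 without saline replicate 3. The isotype and saline ranges of Mcpt2 did not overlap, and 3 saline counts give its ratio of 68.1 a 95% counting interval of 23 to 333. Among 12 prostaglandin and leukotriene genes, 4 rose, among them the cyclooxygenase Ptgs1 (2.19) and the prostaglandin E synthase Ptges (1.53), and the leukotriene receptor Cysltr2 fell (-1.35).

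The mucus list was called as a whole: 16 of 16 tested goblet cell and mucus genes were higher in the isotype lungs (14 of them without saline replicate 3), with a median log2 fold change of 3.13. Clca1, a secreted protease of goblet cells, was at 11, 61.2 and 688 CPM in the isotype lungs and 2.83, 0.165, 0.138, 0.583 and 0 CPM in the saline lungs. The ranges were far apart (log2 fold change 7.66 ± 1.29, adjusted p = 1.83e-05), but the size rests on single libraries, as it was 6.30 without isotype replicate 9 and 9.34 without saline replicate 1. The gel-forming mucins both rose. Muc5ac was at 4.01, 10.1 and 19.6 CPM in the isotype lungs, against 1.63, 1.21, 0.587, 1.28 and 0.726 CPM in saline lungs (log2 fold change 3.16 ± 0.53, adjusted p = 2.03e-05), and Muc5b at 92.3, 158 and 201 CPM, against 47.9, 16.7, 8.43, 51.4 and 10.2 CPM in saline (log2 fold change 2.51 ± 0.49, adjusted p = 0.000152). Slc26a4, the anion exchanger pendrin, which is known to respond to IL-13, was at 229, 414 and 591 CPM in the isotype lungs and 14.7, 6.72, 3.77, 7.89 and 5.55 CPM in the saline lungs, again with no overlap (log2 fold change 5.75 ± 0.53, adjusted p = 2.05e-10). Itln1, the lectin intelectin, also separated the groups (log2 fold change 5.03), as did Foxa3, a transcription factor of goblet cells (3.60). Spdef, the transcription factor that drives goblet cell differentiation, was called at an adjusted p of 0.049 (log2 fold change 1.40), and that call was lost when any single library was left out (adjusted p 0.0517 to 0.102).

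**Figure D2:**
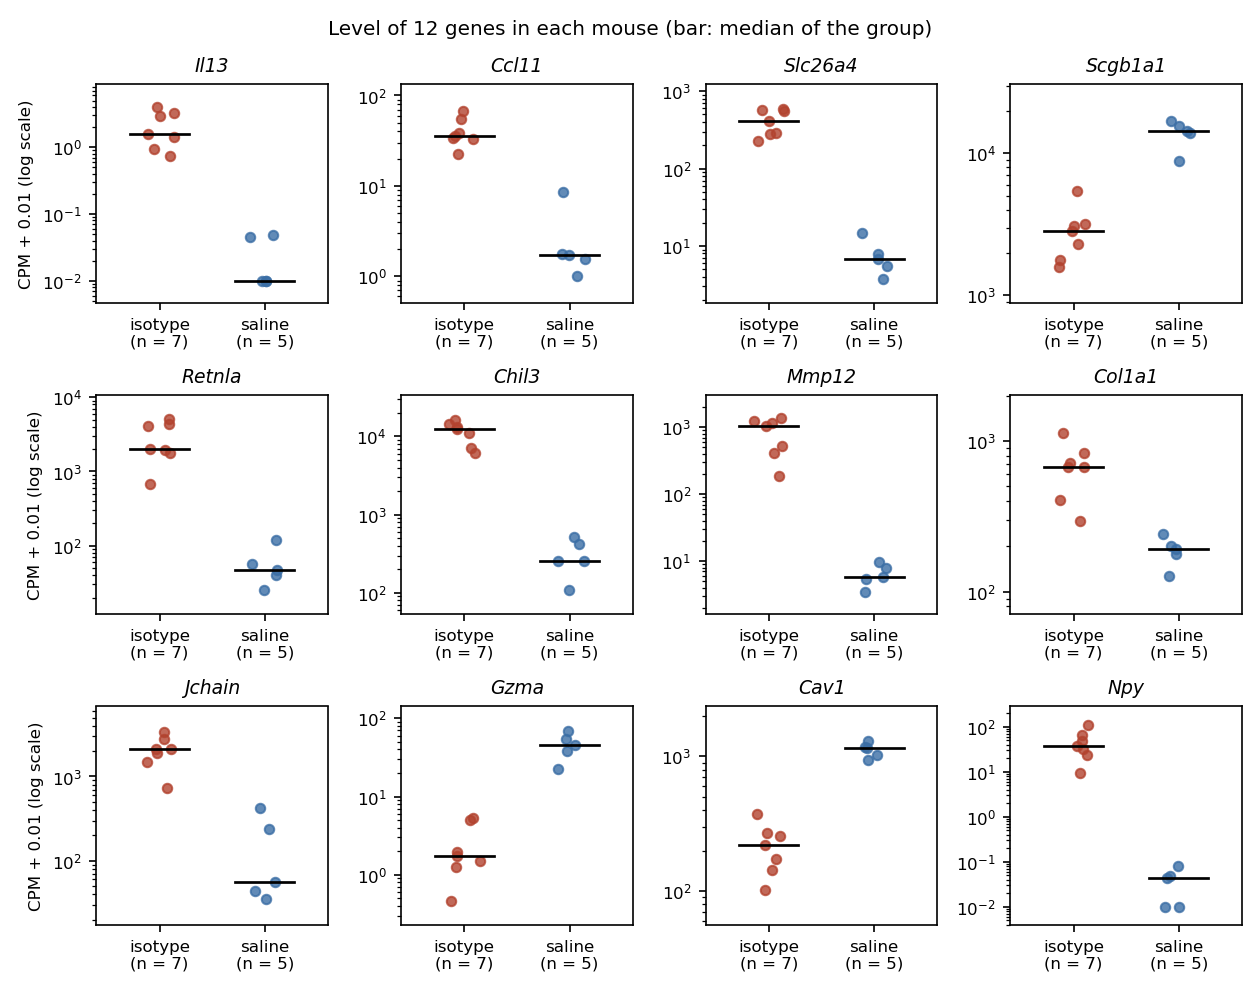
Level of 12 genes in each of the 7 isotype libraries (red, left) and 5 saline libraries (blue, right) as CPM + 0.01 on a log axis, with the group median as a bar. The groups do not overlap in any panel, and Scgb1a1, Gzma and Cav1 are the genes that are lower in the isotype lungs.

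Genes of club cells, the secretory cells of the small airways, were lower. Of 9 club cell genes, 7 fell and none rose, and the same 7 to 0 count was found without saline replicate 3. Scgb1a1, the club cell secretory protein, was at 1589, 2829 and 5465 CPM in the isotype lungs, against 16958, 13892, 8897, 15681 and 14338 CPM in the saline lungs (log2 fold change -2.27 ± 0.43, adjusted p = 9.31e-05). Cyp2f2, a cytochrome P450 of club cells, was at 84, 184 and 374 CPM in the isotype lungs, against 1955, 1738, 1520, 1811 and 1291 CPM in the saline lungs (log2 fold change -3.07 ± 0.44, adjusted p = 1.38e-06). Neither gene's ranges overlapped. Scgb3a1, a secretoglobin on the same list, did not pass the test, with 53.6, 127 and 175 CPM in isotype lungs and 55.3, 22.4, 23.7, 92.5 and 33.5 CPM in saline lungs (log2 fold change 1.40 ± 0.61, adjusted p = 0.0868). Of 10 ciliated cell genes 3 fell, led by Sec14l3 (log2 fold change -1.84) and Tppp3 (-1.62).

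In the alveoli, 6 of 10 genes of the flat type 1 cells fell, and no gene of the surfactant-making type 2 cells did. With the GC slope as a covariate, 9 of the 10 type 1 genes were lower. Hopx, a homeodomain protein of type 1 cells, was at 70.1, 78.6 and 173 CPM in the isotype lungs, against 388, 415, 366, 420 and 363 CPM in the saline lungs (log2 fold change -2.07 ± 0.27, adjusted p = 2.26e-07). Cav1, caveolin of type 1 and endothelial cells, was at 102, 222 and 375 CPM in the isotype lungs, against 1181, 1154, 943, 1292 and 1028 CPM in saline (log2 fold change -2.34 ± 0.36, adjusted p = 4.96e-06). Both were lower in every isotype lung than in every saline lung. Among 11 alveolar type 2 genes, 3 rose and none fell. Sftpd, a collectin that binds allergens and microbes, was at 1005, 1581 and 2543 CPM in the isotype lungs and 608, 516, 374, 519 and 350 CPM in the saline lungs (log2 fold change 1.84 ± 0.25, adjusted p = 7.18e-07), while Sftpc did not pass the test (log2 fold change 0.43 ± 0.27, adjusted p = 0.246). Of 9 genes of transitional epithelium, a state between type 2 and type 1 cells, 1 rose, 4 rose without saline replicate 3, and a fit that held the GC slope called 2 higher and 5 lower, so no direction is given for this list.

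Macrophage genes held many of the clearest differences. Of 14 genes of alternatively activated macrophages, 11 rose and none fell, with or without saline replicate 3, and 10 rose and 1 fell with the GC slope held in the fit. Retnla, the secreted protein FIZZ1, was at 682, 2024 and 5069 CPM in the isotype lungs, against 56.8, 40.2, 120, 47.4 and 25 CPM in the saline lungs (log2 fold change 5.62 ± 0.56, adjusted p = 8.61e-10). Chil3, the chitinase-like protein Ym1, was at 6067, 12547 and 16240 CPM in the isotype lungs, against 514, 420, 254, 255 and 110 CPM in saline (log2 fold change 5.21 ± 0.41, adjusted p = 4.62e-12). No saline library reached the lowest isotype library in either gene. Arg1, arginase, was at 59.1, 114 and 719 CPM in the isotype lungs, against 1.78, 1.43, 14.6, 1.67 and 1.62 CPM in saline (log2 fold change 5.83 ± 0.98, adjusted p = 1.9e-05). Chil4, the closest relative of Chil3, was at 11.7, 50.2 and 225 CPM in the isotype lungs and 0.144, 0.275, 25.8, 0.583 and 0.0991 CPM in saline lungs, and overlapped only in saline replicate 3 (log2 fold change 3.84 ± 1.05, adjusted p = 0.00553). Without saline replicate 3 the log2 fold changes were 7.20 for Arg1 and 8.09 for Chil4. Reads of Chil3 and Chil4 may be shared, as the counting method is not given. Clec7a, the receptor for fungal beta-glucan, rose by 2.87 on the log2 scale, and Pdcd1lg2, which codes for the checkpoint ligand PD-L2, by 1.97.

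The 250 bases before the start of these macrophage genes are shown for 4 whose window held the letters TTCNNNNGAA, a spacing that STAT6 is known to bind and that reads the same on both strands. RefSeq promoters of GRCm38.p6 were on hand for 11 genes of the list, with 16 starts, and 6 of the 16 windows (37.5%), in 5 genes, held the letters, against 1923 of all 32851 windows (5.85%) and 748 of 15827 windows of tested genes (4.73%). The windows of Clec7a overlap and hold the same match, which is thus counted more than once. Capitals mark the match. Chil3, the list's most abundant gene here, is shown as a member without it. Each match is a description of letters and not a measured binding site. The 5 windows lie on mm10 at chr16:48842359-48842608 (plus strand) for Retnla, chr6:129472780-129473029 (minus strand) for Clec7a, chr8:3854287-3854536 (minus strand) for Cd209e, chr19:29410669-29410918 (plus strand) for Pdcd1lg2 and chr3:106167565-106167814 (minus strand) for Chil3. The match began 145 bases before the start in Retnla, 131 in Clec7a, 79 in Cd209e and 82 in Pdcd1lg2.
Retnla: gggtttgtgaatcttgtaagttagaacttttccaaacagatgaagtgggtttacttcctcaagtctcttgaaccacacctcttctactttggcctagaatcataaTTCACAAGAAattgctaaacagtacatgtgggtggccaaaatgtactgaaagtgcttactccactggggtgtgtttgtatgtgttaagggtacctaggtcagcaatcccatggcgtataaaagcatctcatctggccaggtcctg
Clec7a: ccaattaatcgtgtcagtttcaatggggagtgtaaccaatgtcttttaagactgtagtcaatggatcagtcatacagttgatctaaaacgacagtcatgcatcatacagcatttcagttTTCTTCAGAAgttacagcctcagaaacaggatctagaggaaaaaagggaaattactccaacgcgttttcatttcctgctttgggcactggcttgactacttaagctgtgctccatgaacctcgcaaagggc
Cd209e: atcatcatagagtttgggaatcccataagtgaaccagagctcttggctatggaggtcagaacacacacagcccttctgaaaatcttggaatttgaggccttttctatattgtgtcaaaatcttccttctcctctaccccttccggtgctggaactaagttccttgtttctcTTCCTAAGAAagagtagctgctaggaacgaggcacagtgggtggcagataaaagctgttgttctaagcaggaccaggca
Pdcd1lg2: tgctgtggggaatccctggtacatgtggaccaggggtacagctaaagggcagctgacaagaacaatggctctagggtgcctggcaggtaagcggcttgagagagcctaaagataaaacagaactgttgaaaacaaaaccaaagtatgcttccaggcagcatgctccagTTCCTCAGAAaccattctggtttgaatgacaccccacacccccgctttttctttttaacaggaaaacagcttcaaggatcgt
Chil3: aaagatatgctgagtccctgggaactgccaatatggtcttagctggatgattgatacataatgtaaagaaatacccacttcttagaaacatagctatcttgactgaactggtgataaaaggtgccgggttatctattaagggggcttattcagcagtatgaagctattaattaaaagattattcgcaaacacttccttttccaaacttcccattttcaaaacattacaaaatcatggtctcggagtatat
Retnla and Clec7a have been described above. Cd209e, a C-type lectin, was at 0.575, 1.27 and 4.21 CPM in the isotype lungs and 0.144, 0, 0.242, 0.0778 and 0 CPM in the saline lungs (log2 fold change 4.12 ± 0.78, adjusted p = 0.000106), with a log2 fold change of 4.87 without saline replicate 3. Ccl17, a chemokine for T helper 2 cells, also held the letters (log2 fold change 1.39, adjusted p = 0.04), and its call was lost without isotype replicate 1, 4, 6 or 9 or without saline replicate 1, 2, 4 or 5 (adjusted p 0.0559 to 0.0991). Of all genes that were higher, 5.28% of windows held the letters, and of those that were lower, 6.22%. The letters were counted in the other gene lists too, and the alternatively activated macrophage list had the highest share. Many lists held none, but some others were also above the share of all windows. Among these were type 2 cytokines and receptors (3 of 15 windows), prostaglandin and leukotriene genes (2 of 10) and cartilage genes (1 of 4). The differences between lists were not tested.

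All 14 lipid-handling macrophage genes rose, with a median log2 fold change of 3.32. These are genes of macrophages that take up lipid and debris. Gpnmb, a lysosomal membrane glycoprotein, was at 555, 1633 and 4672 CPM in the isotype lungs, against 44, 31, 36.3, 26.7 and 17.2 CPM in the saline lungs (log2 fold change 6.00 ± 0.65, adjusted p = 5.18e-09). Mmp12, macrophage elastase, was at 184, 1056 and 1388 CPM in the isotype lungs, against 7.83, 9.58, 5.35, 5.68 and 3.47 CPM in saline (log2 fold change 7.06 ± 0.75, adjusted p = 2.9e-09). Trem2, a lipid receptor, was at 44.7, 87.1 and 142 CPM in the isotype lungs, against 5.42, 4.41, 6.36, 3.34 and 2.94 CPM in saline (log2 fold change 4.28 ± 0.42, adjusted p = 5.7e-10). For all 3 genes the lowest isotype library lay above the highest saline library by more than the saline range. Spp1, osteopontin, rose by 6.20 and Ctsk, a cathepsin that degrades collagen, by 5.70 on the log2 scale. Fabp5, a fatty acid carrier also made by fat and squamous cells, was at 268, 411 and 596 CPM in isotype lungs and 100, 70.9, 573, 81.6 and 70.8 CPM in saline lungs (log2 fold change 1.25 ± 0.46, adjusted p = 0.0408). The log2 fold change of Fabp5 was 2.39 without saline replicate 3, and its call was lost without isotype replicate 1, 3 or 4 or without saline replicate 1, 2, 4 or 5, at 1.02 to 1.25. The 9 genes of resident alveolar macrophages were split, with 4 higher, such as Itgax, the integrin CD11c (3.35), and 3 lower, such as Fabp1 (-4.84). The macrophage marker Cd68 was at 319, 492 and 1008 CPM in the isotype lungs and 65.2, 43.2, 46.9, 31.9 and 35.1 CPM in saline lungs (log2 fold change 3.62 ± 0.32, adjusted p = 4.96e-11).

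Mediators that attract neutrophils were higher while genes of neutrophils themselves were mostly not called. Of 12 neutrophil-attracting and type 17 mediators, 11 rose and none fell. Lcn2, the iron-binding protein lipocalin 2, was at 1238, 1558 and 2363 CPM in the isotype lungs, against 97.7, 61.8, 44.7, 74.5 and 57.6 CPM in the saline lungs (log2 fold change 4.56 ± 0.28, adjusted p = 2.64e-15). Cxcl5, a neutrophil chemokine of the epithelium, was at 7.85, 19.5 and 52.3 CPM in the isotype lungs, against 1.58, 0.275, 0.207, 0.156 and 0.198 CPM in saline (log2 fold change 5.68 ± 0.63, adjusted p = 9.74e-09). Saa3, an acute phase protein made in tissue, was at 129, 465 and 772 CPM in the isotype lungs, against 5.66, 1.82, 12.9, 3.89 and 1.06 CPM in saline (log2 fold change 6.46 ± 0.82, adjusted p = 1.4e-07). All 3 separated the groups, and the log2 fold changes were 6.82 for Cxcl5 without saline replicate 1 and 7.16 for Saa3 without saline replicate 3. Il17a, the main cytokine of type 17 cells, was at 0, 0.0965 and 1.82 CPM in the isotype lungs and had 0 counts in all saline lungs, which gives an at least 15.4-fold higher level against 3 counts over the saline group (log2 fold change 5.79 ± 1.57, adjusted p = 0.00566), with a fitted value of 4.21 without isotype replicate 9. With Il17a set at its bound, the median log2 fold change of the list was 4.09 in place of 4.31. Of 10 neutrophil genes none rose and 1 fell. S100a8, a calcium-binding protein abundant in neutrophils, was at 39.9, 49.4 and 118 CPM in the isotype lungs and 16.6, 95.4, 27.8, 22.5 and 41.9 CPM in the saline lungs, with overlapping ranges and no call (log2 fold change 0.74 ± 0.57, adjusted p = 0.355). Ngp, a neutrophil granule protein, fell (log2 fold change -1.73 ± 0.60, adjusted p = 0.028), a call lost without isotype replicate 3 or saline replicate 2 or 3 (adjusted p 0.0517 to 0.0911).

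Among 15 chemokines for monocytes and lymphocytes, 10 rose and 1 fell. Ccl8, a monocyte chemokine, was at 25.2, 59 and 108 CPM in the isotype lungs, against 8.45, 1.65, 9.33, 1.36 and 0.561 CPM in the saline lungs (log2 fold change 3.89 ± 0.61, adjusted p = 6.42e-06). Ccl3, a chemokine of macrophages, was at 8.06, 28.4 and 50.5 CPM in the isotype lungs, against 1.63, 1.27, 0.415, 0.817 and 1.22 CPM in saline (log2 fold change 4.78 ± 0.51, adjusted p = 3.75e-09). Neither overlapped. Ccl5, a chemokine made by cytotoxic lymphocytes, fell, with 4.14, 8.11 and 17.3 CPM in the isotype lungs and 13.3, 54.8, 67.3, 44.8 and 65.6 CPM in saline lungs, where only saline replicate 1 lay within the isotype range (log2 fold change -2.48 ± 0.51, adjusted p = 0.000283).

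Genes of matrix and its turnover were higher. Of 19 extracellular matrix genes, 13 rose and 1 fell, and without saline replicate 3 the counts were 10 and 0. Col1a1, the alpha 1 chain of type I collagen, was at 294, 673 and 1122 CPM in the isotype lungs, against 127, 178, 242, 202 and 193 CPM in the saline lungs (log2 fold change 1.83 ± 0.46, adjusted p = 0.00277). Col3a1, type III collagen, was at 998, 1299 and 1575 CPM in the isotype lungs, against 511, 396, 370, 457 and 453 CPM in saline (log2 fold change 1.59 ± 0.30, adjusted p = 0.000107). Tnc, tenascin C, was at 40.2, 151 and 191 CPM in the isotype lungs, against 17.6, 10.7, 16.2, 16.4 and 20.8 CPM in saline (log2 fold change 2.98 ± 0.48, adjusted p = 8.8e-06). The ranges of all 3 were separate. Eln, elastin, was at 245, 542 and 711 CPM in the isotype lungs and 171, 217, 144, 179 and 168 CPM in saline lungs (log2 fold change 1.55 ± 0.58, adjusted p = 0.0458). The call of Eln was lost when any library other than isotype replicate 9 was left out (adjusted p 0.055 to 0.084). Postn, periostin, is a matrix protein known to respond to IL-13, and was the member that fell, to 90.2, 136 and 150 CPM in the isotype lungs, against 209, 205, 222, 255 and 212 CPM in saline (log2 fold change -0.83 ± 0.30, adjusted p = 0.0377). Its call was lost without isotype replicate 1, 4 or 8 or without any one saline library (adjusted p 0.051 to 0.0805). Of 12 metalloproteinases and inhibitors, 9 rose and 1 fell. Timp1, an inhibitor of metalloproteinases, was at 21.3, 138 and 158 CPM in the isotype lungs, against 7.87, 3.53, 4.73, 2.88 and 4.62 CPM in saline (log2 fold change 4.47 ± 0.63, adjusted p = 9.23e-07), whereas Timp3, a matrix-bound inhibitor, fell to 296, 339 and 421 CPM in the isotype lungs, against 888, 946, 660, 950 and 797 CPM in saline (log2 fold change -1.32 ± 0.36, adjusted p = 0.00547).

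The structural cells of the alveolar wall showed the opposite sign. All 9 alveolar fibroblast genes fell, with no overlap in any of them, a median log2 fold change of -2.03, and the same 9 calls without saline replicate 3. Tcf21, a transcription factor of lipofibroblasts, was at 3.97, 7.28 and 17.8 CPM in the isotype lungs, against 28.2, 47, 36.6, 47 and 48.4 CPM in the saline lungs (log2 fold change -2.22 ± 0.36, adjusted p = 1.12e-05). Inmt, a methyltransferase gene of alveolar fibroblasts, was at 48.1, 123 and 255 CPM in the isotype lungs, against 642, 1035, 927, 1072 and 966 CPM in saline (log2 fold change -2.78 ± 0.57, adjusted p = 0.000285). Of 13 endothelial genes, 7 fell and none rose. Ednrb, the endothelin receptor of aerocyte capillary cells, was at 6.5, 15.1 and 33.3 CPM in the isotype lungs, against 82.1, 103, 99.1, 121 and 84.7 CPM in saline (log2 fold change -2.62 ± 0.51, adjusted p = 0.000155). Kdr, a receptor for VEGF, also fell (-1.63). Vwf, a gene of larger vessels, was at 331, 501 and 624 CPM in the isotype lungs and 668, 626, 589, 615 and 460 CPM in saline lungs, and did not pass the test. None of 10 smooth muscle genes was called, at a median log2 fold change of -0.23, and 1 was called higher without saline replicate 3. All 4 mesothelial genes fell, for example Upk3b (-2.26), a gene of the pleural lining.

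Lymphocyte genes changed by type. Of 11 NK and cytotoxic cell genes, 10 fell and none rose, with or without saline replicate 3. Gzma, granzyme A, was at 0.46, 1.75 and 5.26 CPM in the isotype lungs, against 22.2, 53.9, 38.2, 44.9 and 68.6 CPM in the saline lungs (log2 fold change -4.21 ± 0.58, adjusted p = 6.01e-07). Ncr1, an activating receptor that defines NK cells, was at 0.241, 0.437 and 1.46 CPM in the isotype lungs, against 4.32, 5.29, 2.35, 4.36 and 8.45 CPM in saline (log2 fold change -3.08 ± 0.45, adjusted p = 1.52e-06). In both genes every isotype lung was below every saline lung. Of 13 genes of T helper 2 and regulatory T cells, 6 rose and none fell, while 5 rose without saline replicate 3 and 8 rose and 1 fell with the GC slope held in the fit. Foxp3, the transcription factor of regulatory T cells, was at 2.07, 2.89 and 7.31 CPM in the isotype lungs, against 1.82, 1.05, 1.45, 1.48 and 1.49 CPM in saline (log2 fold change 1.57 ± 0.43, adjusted p = 0.00573), and the chemokine receptor Ccr8 rose as well (1.71). The T cell gene Cd3e was at 8.45, 11.3 and 15.1 CPM in isotype lungs and 11, 19.9, 17.7, 14.6 and 24.5 CPM in saline lungs, and did not pass the test (log2 fold change -0.63 ± 0.27, adjusted p = 0.0793).

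Plasma cell genes were higher and B cell genes were not. Of 11 plasma cell genes, 9 rose and none fell. Jchain, the joining chain of IgA and IgM, was at 734, 2100 and 3365 CPM in the isotype lungs, against 235, 55.4, 421, 34.7 and 44 CPM in the saline lungs (log2 fold change 3.71 ± 0.61, adjusted p = 1.34e-05), with a log2 fold change of 4.48 without saline replicate 3. Derl3, which clears misfolded proteins in secretory cells, was at 24.4, 29.8 and 43.9 CPM in the isotype lungs, against 2.45, 1.21, 3.45, 0.272 and 1.16 CPM in saline (log2 fold change 4.21 ± 0.58, adjusted p = 5.83e-07). Neither gene's ranges overlapped. Of 9 B cell genes, 1 rose and 3 fell, and without saline replicate 3 none rose and 2 fell. Blk, a kinase of B cells, was at 2.22, 3.46 and 13.9 CPM in the isotype lungs and 13.1, 9.09, 15.3, 13 and 24.3 CPM in saline lungs (log2 fold change -1.41 ± 0.42, adjusted p = 0.0115). Of 7 MHC class II genes 1 rose, Cd74, the invariant chain (1.08).

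Interferon response genes fell in 10 of 13 cases and rose in none, and in 9 cases without saline replicate 3. Gbp2, a guanylate-binding protein induced by interferon gamma, was at 16.7, 31.9 and 62.6 CPM in the isotype lungs, against 154, 332, 135, 133 and 110 CPM in the saline lungs (log2 fold change -2.40 ± 0.43, adjusted p = 4.25e-05). Ifit3, induced by type I interferon, was at 12.6, 15.4 and 20.5 CPM in the isotype lungs, against 78.7, 81.1, 54.3, 57.5 and 55.4 CPM in saline (log2 fold change -2.03 ± 0.36, adjusted p = 4.37e-05). Ifng itself was at 0.0575, 0.156 and 0.568 CPM in the isotype lungs and 0.288, 1.1, 0.898, 0.7 and 1.25 CPM in saline lungs (log2 fold change -1.94 ± 0.54, adjusted p = 0.00633). Both response genes were lower in every isotype lung than in every saline lung, while Ifng fell with some overlap. Acute phase genes went the other way, with 7 of 8 higher and a median log2 fold change of 3.81, or 3.35 with Saa2, at 0 counts in all saline lungs, set at its bound of an at least 7.85-fold higher level. Fga, the alpha chain of fibrinogen, was at 13, 37 and 68.6 CPM in the isotype lungs, against 1.82, 0.441, 0.345, 0.7 and 0.495 CPM in saline (log2 fold change 5.72 ± 0.60, adjusted p = 2.89e-09). Of 10 complement genes 6 rose and 1 fell, with C3ar1, the receptor for C3a, higher by 1.84 on the log2 scale and C2, a protease of the classical pathway, at -1.35. Of 13 cell cycle genes 2 rose.

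Lists for tissue carried along with the lung, and for RNA quality, were counted in the same way. All 6 adipose genes, 6 of 8 squamous, 2 of 4 skeletal muscle, 4 of 7 cardiac and 1 of 7 erythroid genes were called lower in the isotype lungs. Without saline replicate 3 the counts were 2 adipose, 0 squamous, 0 skeletal muscle, 1 cardiac and 0 erythroid genes. Of 13 mitochondrially encoded genes none was called, and their sum was 27454 to 53445 CPM in the isotype lungs, against 27106 to 42152 CPM in the saline lungs. Of 8 immediate early genes 2 rose, Atf3 (2.96) and Junb (2.27). The part of these genes in the results on other lists was not tested beyond leaving saline replicate 3 out.

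The 10 genes with the largest increases among those called, with a mean of 1 CPM or more in 1 group and no overlap, were Npy, Awat1, Msx3, ccdc198, Fgf23, Prss46, Clca1, Dlk1, Tm4sf19 and Lemd1. Npy, neuropeptide Y (chromosome 6, 49822710 to 49829507, mm10), was at 9.52, 37.7 and 110 CPM in the isotype lungs, against 0, 0, 0.0691, 0.0389 and 0.033 CPM in the saline lungs (log2 fold change 10.24 ± 0.97, adjusted p = 3.57e-10). Awat1, a wax alcohol acyltransferase (chromosome X, 100572247 to 100578206), was at 35.9, 45.2 and 57 CPM in the isotype lungs, against 0.384, 0, 0, 0.0389 and 0.066 CPM in saline (log2 fold change 8.87 ± 0.65, adjusted p = 7.68e-13). Fgf23, a phosphate-regulating hormone of bone (chromosome 6, 127072902 to 127082296), was at 3.76, 13.7 and 25.6 CPM in the isotype lungs, against 0.048, 0, 0.138, 0.0389 and 0 CPM in saline (log2 fold change 7.94 ± 1.20, adjusted p = 3e-06). These genes were nearly silent in the saline lungs and present in all 7 isotype lungs. Msx3, ccdc198 and Lemd1 had 0 counts in every saline library, which makes them at least 93.9-fold, 75.1-fold and 43.4-fold higher against 3 counts over the saline group. Prss46, a serine protease, had 1 saline count, and its ratio of 360 has a 95% counting interval of 64.2 to 14247. Single saline libraries moved some of these sizes: the log2 fold change was 10.31 for Awat1 without replicate 1, and 8.89 for Fgf23, 8.80 for Prss46 and 9.38 for Dlk1 without replicate 3.

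The 10 largest decreases by the same rule were Gsta2, Retn, Fabp1, Cst8, Lep, Prom2, Cyp2b13, Car3, Pon1 and Acsm3. Pon1, the lipid-protecting paraoxonase (chromosome 6, 5168090 to 5193987), was at 0.676, 1.79 and 3.28 CPM in the isotype lungs, against 45, 36.2, 38.4, 41.1 and 25.7 CPM in the saline lungs (log2 fold change -4.39 ± 0.70, adjusted p = 8.62e-06). Cst8, a cystatin-related gene (chromosome 2, 148798839 to 148805596), was at 0.0575, 0.156 and 0.275 CPM in the isotype lungs, against 5.09, 4.9, 3.94, 6.77 and 3.8 CPM in saline (log2 fold change -4.80 ± 0.68, adjusted p = 1.04e-06). In both, every saline lung was more than 5-fold above the highest isotype lung. Gsta2, a glutathione transferase, was at 0, 0.0455 and 0.284 CPM in the isotype lungs, against 2.11, 2.64, 11.8, 2.37 and 1.92 CPM in saline (log2 fold change -5.94 ± 0.84, adjusted p = 9.75e-07), with a log2 fold change of -5.06 without saline replicate 3 and -7.08 without isotype replicate 8. For 5 others, saline replicate 3 set much of the size. Without it the log2 fold change was -2.78 for Retn, -3.10 for Lep, -2.55 for Prom2, -2.49 for Car3 and -3.40 for Acsm3, against -5.23, -4.70, -4.69, -4.52 and -4.37 with it. That of Cyp2b13 was -5.53 without isotype replicate 1, against -4.61 with it.

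Ranked by p among genes with a mean of 20 CPM or more in 1 group, the 10 leading higher genes were Lcn2, Awat1, Chil1, Chil3, Ch25h, Ctsz, Stra6l, Cd68, Inhba and Rnf128. Chil1, a chitinase-like protein, was at 4396, 5530 and 6709 CPM in the isotype lungs, against 836, 303, 488, 337 and 402 CPM in the saline lungs (log2 fold change 3.53 ± 0.28, adjusted p = 4.12e-12). Ch25h, which makes 25-hydroxycholesterol, was at 27, 47.3 and 80.5 CPM in the isotype lungs, against 4.27, 2.26, 2.38, 3.54 and 2.94 CPM in saline (log2 fold change 4.06 ± 0.33, adjusted p = 6.57e-12). Inhba, the activin A subunit, was at 31.4, 78 and 83.7 CPM in the isotype lungs, against 1.2, 0.771, 1.45, 1.01 and 1.12 CPM in saline (log2 fold change 5.85 ± 0.51, adjusted p = 5e-11). In all 3 the lowest isotype lung was more than 5-fold above the highest saline lung. Leading lower genes were Clec14a, Cyp4b1, Slco3a1, Ndrg2, Tspan7, Kcnk2, Cldn15, Hopx and Mapt. Clec14a, an endothelial lectin, was at 31.7, 48.5 and 86.6 CPM in the isotype lungs, against 266, 316, 210, 314 and 281 CPM in saline (log2 fold change -2.43 ± 0.27, adjusted p = 8.78e-09). Cyp4b1, a lung cytochrome P450, was at 31.5, 46.4 and 116 CPM in the isotype lungs, against 462, 577, 514, 587 and 454 CPM in saline (log2 fold change -3.30 ± 0.38, adjusted p = 1.77e-08). Slco3a1, an organic anion transporter, changed least of these 9, with 43.8, 47.3 and 59.6 CPM in the isotype lungs against 107, 124, 81.1, 119 and 106 CPM in saline (log2 fold change -1.13 ± 0.13, adjusted p = 1.77e-08).

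**Figure D3:**
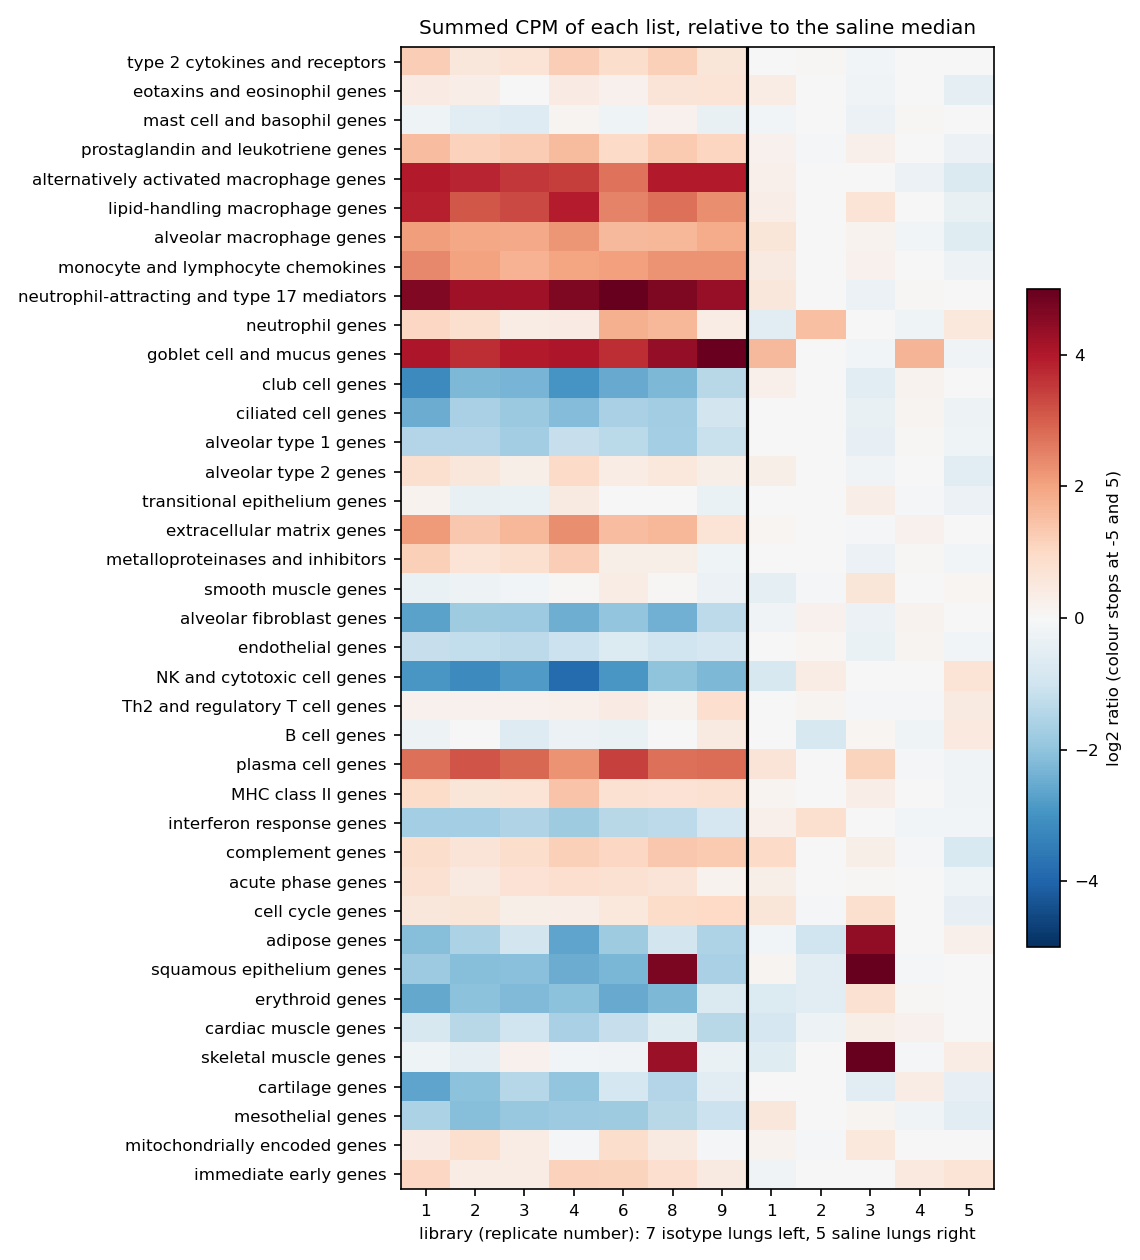
Summed CPM of each gene list in each library, as the log2 ratio to the median of the 5 saline libraries, with the 7 isotype libraries left of the line and the saline libraries right of it. Highly expressed members dominate a sum. Isotype replicates 1 and 4 show the darkest lipid-handling macrophage and matrix values, 2 lists that may share members, and the lowest club cell values. Isotype replicate 9 shows the highest mucus sum, of which Clca1 alone gave 688 CPM.

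The 7 isotype lungs differed among themselves. Summed lipid-handling macrophage genes were at 27179 CPM in isotype replicate 1 and 28141 CPM in replicate 4, and at 9309 to 18283 CPM in the other 5. Summed extracellular matrix genes were at 14921 and 17373 CPM in the same 2 lungs and at 5561 to 11022 CPM in the others. The largest log2 fold change of the matrix list, 6.20, equals that of Spp1, described above among lipid-handling macrophage genes. The sums of these lists may thus not be independent. Summed club cell genes were lowest in isotype replicates 1 and 4, at 1991 and 2343 CPM, against 3163 to 7074 CPM in the others. These 2 libraries also had the highest GC slopes of the isotype group, at 0.05 and 0.38, against -0.45 to -0.10 in the other 5, and the part of the slope in these differences was not tested. Isotype replicate 9 stood at the other end. It had the highest sums of mucus genes, at 1675 CPM against 699 to 1133 CPM, and of club cell genes, at 7074 CPM. It also had the lowest sums of lipid-handling macrophage and matrix genes, and the lowest GC slope, at -0.45. Clca1 alone gave 688 CPM of the mucus sum in replicate 9, against 11 to 111 CPM in the others. With Clca1 left out, replicate 9 did not have the highest mucus sum.

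By single genes, the widest spread among the isotype lungs, of list members with a mean of 5 CPM or more there, was in Krt13, Krt4, Acta1, Bpifa1 and Clca1. Krt13 and Krt4, keratins of squamous epithelium, were at 78.4 and 77.6 CPM in isotype replicate 8 and under 1 CPM in the other 6, and Acta1, skeletal muscle actin, was at 32.6 CPM in that lung. Against the saline lungs Krt4 was called lower (log2 fold change -6.62 ± 2.44, adjusted p = 0.0411), at a log2 fold change of -12.94 without isotype replicate 8 and, with no call, of 5.82 without saline replicate 3 (adjusted p = 0.127). That call was also lost when any one of the other 6 isotype lungs was left out (adjusted p 0.0611 to 0.0751). Bpifa1, an antimicrobial protein of the upper airway, ran over 0.546, 7.25 and 46.7 CPM in the isotype lungs, against 43.4, 0.771, 0.864, 56.9 and 2.21 CPM in the saline lungs. Its order differed from that of Clca1, as isotype replicate 9 had the lowest Bpifa1 and the highest Clca1, at 688 CPM. Arg1 was highest in isotype replicate 1, at 719 CPM, and lowest in replicate 9, at 59.1 CPM, and Retnla was highest in replicate 8, at 5069 CPM, and lowest in replicate 6, at 682 CPM.

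Against the mice given HDM for 19 weeks without antibody, the isotype lungs showed 0 called genes of 15979 (0%) by edgeR, with 341 genes at an unadjusted p under 0.05, where chance alone would give 799, and a lowest adjusted p of 0.977. DESeq2 called 2 genes higher and 1 lower, and limma voom called 0 higher and 1 lower. Neither a count of 0 nor fewer small p-values than chance would give shows that the groups were alike. GC slopes ran from -0.41 to 0.87 in the lungs given HDM alone, and 0 genes were called with the slope as a covariate. Among genes other than predicted ones and antigen receptor segments, the 3 smallest p-values by edgeR belonged to BC018473, Mid1 and Trim12a. BC018473 was at 0.0459, 0.0795 and 0.237 CPM in the isotype lungs, against 0.0577, 0.459 and 42.9 CPM in the lungs given HDM alone, again as the lowest, the median and the highest. Mid1, a ubiquitin ligase that regulates microtubules, was at 14.2, 19 and 27 CPM in the isotype lungs, against 18.2, 58.7 and 105 CPM in the lungs given HDM alone (log2 fold change -1.70), with overlapping ranges. Trim12a, an antiviral protein of the TRIM5 family, was at 0.0483, 0.273 and 10.3 CPM in the isotype lungs, against 0, 0.075 and 0.306 CPM with HDM alone. In Trim12a, isotype replicates 2, 3 and 4 held 10.3, 8.55 and 3.97 CPM and the other 4 isotype lungs 0.0483 to 0.273 CPM.

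**Figure D4:**
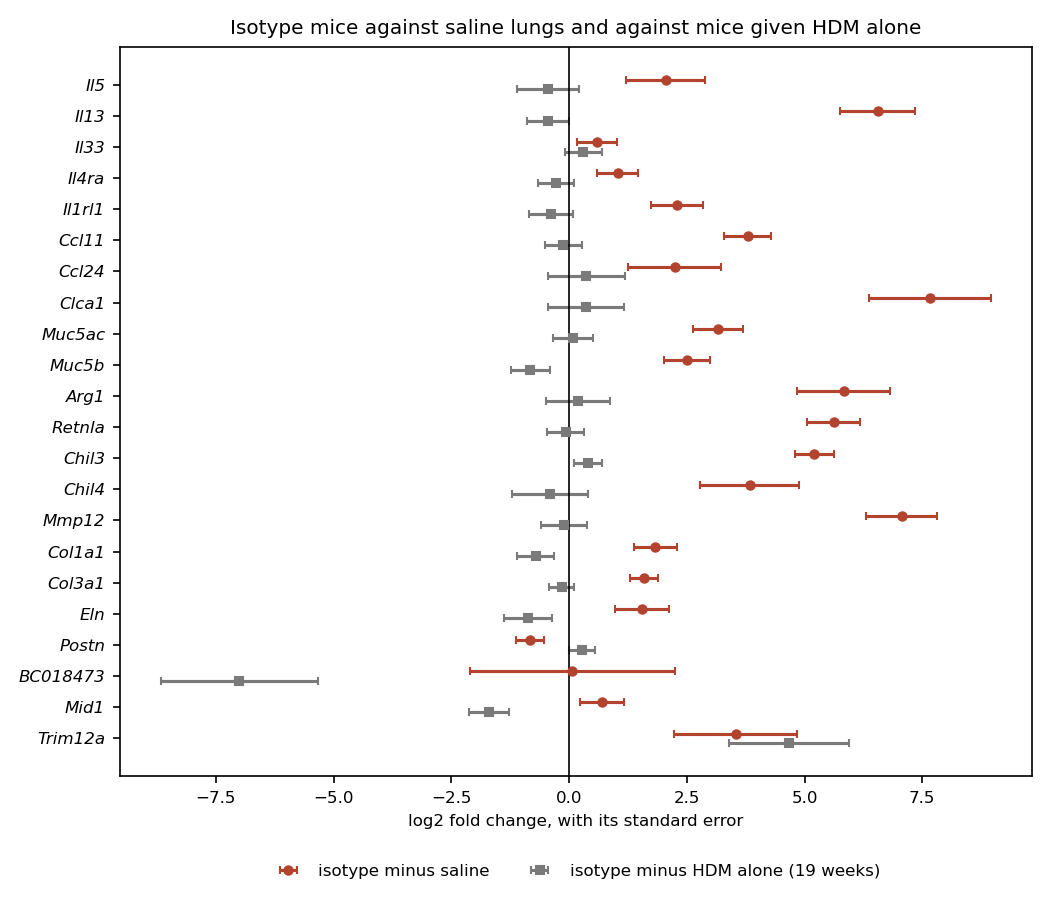
Log2 fold changes with their standard errors for 22 genes, isotype minus saline (red circles) and isotype minus HDM alone for 19 weeks (grey squares). BC018473, Mid1 and Trim12a are the genes with the smallest p in the second comparison, where no gene was called.

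The 2 groups given HDM would share the same saline libraries, so they were set against each other directly. Il13 averaged 2.12 ± 1.27 CPM in isotype lungs and 2.91 ± 0.952 CPM in lungs given HDM alone (SD, n = 7 each), a log2 difference of -0.45 ± 0.44 (SE). Ccl11 averaged 40.8 ± 15.2 CPM in the isotype lungs and 44.4 ± 16.9 CPM with HDM alone (-0.12 ± 0.39). Retnla averaged 2850 ± 1637 CPM in the isotype lungs and 3001 ± 1032 CPM with HDM alone (-0.07 ± 0.39). In all 3 the SD within a group was larger than the difference between the means. Col1a1 averaged 672 ± 272 CPM in the isotype lungs and 1100 ± 659 CPM with HDM alone (-0.71 ± 0.40). Eln averaged 514 ± 141 CPM in the isotype lungs and 946 ± 599 CPM with HDM alone (-0.88 ± 0.51). Neither passed the test. Over lists, the median log2 difference of isotype minus HDM alone was -0.11 for the 16 mucus genes, 0.08 for the 14 alternatively activated macrophage genes, -0.09 for the 19 matrix genes and -0.05 for the 11 NK and cytotoxic cell genes, beside 0.01 over all genes. Other lists lay further from 0. The median was -1.07 for the 12 mast cell and basophil genes, -0.40 for the 9 club cell genes and 0.40 for the 9 alveolar macrophage genes. All 7 MHC class II genes had negative differences, from -0.70 to -0.20, with a median of -0.36. The 8 squamous genes had a median of -3.60 and the 4 skeletal muscle genes one of -3.96. Summed over all listed members, squamous genes were at 1.35, 1.85 and 3865 CPM with HDM alone (lowest, median, highest), against 1.27, 1.67 and 183 CPM with isotype. Skeletal muscle genes were at 2.33, 3.42 and 1525 CPM, against 2.62, 3.21 and 72 CPM. So the medians of these sums were close, and high single libraries set the differences. No member of these lists was called.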

How the data were processed

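Whole-lung RNA of 43 libraries in 7 groups was sequenced from stranded mRNA libraries, per the labels' protocols. The authors deposited 1 table of expected counts for 24475 genes, of which 3193 were at 0 in all libraries and 76.8% of the nonzero values were whole numbers. The genome build was mm10, per the submitters' processing notes, while the sources used here give no aligner, counting tool, annotation or use of strand, so that genes with near-identical copies or antisense partners may share reads. Counts were rounded, filtered by group to 15979 genes, scaled by TMM and fitted with edgeR 4.0.16 (R 4.3.3) as 1 mean per group over all 43 libraries, with the robust quasi-likelihood test, 36 residual degrees of freedom and Benjamini-Hochberg adjustment over all genes tested. An adjusted p under 0.05 was called. Where a gene had 0 counts in every saline library, its fold was computed against 3 counts over the group. Intervals cover counting error only. DESeq2 1.42.0, limma 3.58.1, other scalings and filters, GC corrections and leaving out each library were alternatives. The fit was also run on simulated data, but these held no GC tilt and no outlying library, so they cannot show how such features act on the calls. Symbols, positions and promoters came from RefSeq GRCm38.p6 (24375 of 24475 identifiers matched), and GC content from GENCODE transcripts of the same build (24082 genes).

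Genes were named by rule: up to 10 in each direction with the largest change and no overlap between the groups, up to 10 with the smallest p, up to 4 called members of each gene list and other members as examples, up to 5 list members that spread most among isotype lungs, up to 3 with the smallest p against HDM alone, and a set of 20 type 2, mucus, macrophage and matrix genes whatever their result. Immunoglobulin and T cell receptor segments and predicted genes were left out, and 1 gene that the rule named is not reported here. The members, lists and rule were chosen with earlier results of these data known. No 2 libraries held identical counts. Samples that share a replicate number were not treated as pairs.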

Additional observations from a re-analysis of the deposited data

Results flagged for a closer look

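Of 266 sets of values tested, drawn from named genes other than Ear6 in each group, 48 held a library set apart. Its gap to its nearest neighbour was too large for its group's range. By chance 1 in 20, or 13.3, would be found if values were independent and normally spread, which CPM of related genes need not be. Krt13, Krt4, Acta1, Bpifa1 and Clca1 were also named for their spread among isotype lungs, so no conclusion is drawn from the excess. The values below are in CPM, each followed in brackets by the nearest other library of its group.

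Isotype replicate 9 stood apart in 12 genes, always as the highest of the isotype lungs. Among them were mucus and club cell genes, with Clca1 at 688 (111), Muc5ac at 19.6 (10.7) and Scgb1a1 at 5465 (3176). Genes that were lower in the isotype group were least so here, with Hopx at 173 (89.5), Cyp4b1 at 116 (53.4), Tspan7 at 149 (88.1), Upk3b at 34.1 (21.8) and Sec14l3 at 733 (423). C2 was at 45.8 (24.5), Gbp2 at 62.6 (36), Ncr1 at 1.46 (0.689) and Il17a at 1.82 (0.259).

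Isotype replicate 8 was highest in 6 genes. They were Krt13 at 78.4 (0.0918), Krt4 at 77.6 (0.23), Acta1 at 32.6 (0.806), Prom2 at 0.9 (0.363), Gsta2 at 0.284 (0.0575) and Ifng at 0.568 (0.273). Other isotype lungs stood apart in 1 gene each: replicate 3 with Bpifa1 at 46.7 (18.6), replicate 4 with Cd74 at 4321 (2855), replicate 6 with Lcn2 at 2363 (1647) and replicate 1 with Cyp2b13 at 0.386 (0.159).

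Saline replicate 3 was highest in 18 genes. Squamous, muscle and fat genes were among them, with Krt4 at 5501 (0.33), Krt13 at 5305 (0.35), Acta1 at 657 (0.275), Retn at 83.2 (5.22) and Lep at 6.91 (0.859). Genes outside those lists were Car3 at 665 (49.2), Fabp5 at 573 (100), Prom2 at 36.9 (2.42), Gsta2 at 11.8 (2.64) and Acsm3 at 7.25 (1.56). Among the 18 were also genes called higher with isotype, with Arg1 at 14.6 (1.78), Chil4 at 25.8 (0.583), Ccl11 at 8.57 (1.78), Prg2 at 4.46 (1.3), Ptges at 52.2 (32.1), Dlk1 at 0.449 (0.0778) and Prss46 at 0.0345 (0). Mcpt4, which was not called, was at 10.2 (1.3). Saline replicate 1 was highest in 6 genes, with Clca1 at 2.83 (0.583), Cxcl5 at 1.58 (0.275), Awat1 at 0.384 (0.066), Ctsk at 30.5 (17.3), Fga at 1.82 (0.7) and Itgax at 98.2 (61.4). Saline replicate 2 had Gbp2 at 332 (154), and saline replicate 4 had Spp1 at 77.7 (34.6).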

How the results depend on the processing

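Of 116 named genes called against saline, Ear6 not counted, 107 kept their call in every alternative that tested them. This does not extend to the counts of the gene lists. Called list members not named above, such as Cr2, Ms4a1, C1qa and C3, lost their calls when certain single libraries were left out. Counts moved by over 1.5 times with limma voom (5383 higher, 5134 lower), with only the 2 groups in the fit (3999 and 4079), without the 10 libraries of other groups whose GC slope was above 0.75 (4028 and 4332) and, for lower genes, with GC and length offsets (3015). Leaving out 1 library gave 1622 to 2100 higher and 1592 to 2158 lower genes. Against HDM alone, DESeq2 called 2 higher and 1 lower, and limma voom 1 lower, where edgeR called 0. The cause of these shifts was not tested. With the replicate number as a block, 1719 genes were higher and 1572 lower, and 6 of the 116 calls were lost. Same-numbered isotype and saline libraries correlated at -0.0547, 0.148, -0.064 and -0.0829. For isotype libraries and those given HDM alone, the same-numbered pairs correlated at 0.0954, -0.381, -0.187, 0.107 and 0.499. What else same-numbered samples share was not tested. The direction reversed without saline replicate 3 for Krt4 (5.82), Krt13 (5.76), Acta1 (4.40) and Mcpt4 (0.19), with limma voom for Acta1 (1.55), Krt4 (1.48) and Bpifa1 (0.49), without saline replicate 4 for Bpifa1 (0.16) and BC018473 (-0.15), and for BC018473 without isotype replicate 4 (-0.07) or 8 (-0.27). Leaving out 1 isotype lung gave -12.94 for Krt4, -14.48 for Krt13 and -8.07 for Acta1 (replicate 8), -1.46 for Bpifa1 (replicate 3) and -1.89 for Mcpt4 (replicate 4) at the other end. Of these 5 genes, Krt4 alone was called in the main fit, while Krt13 (adjusted p = 0.00257 by edgeR) and Acta1 (0.0132) were called without isotype replicate 8. Both were also called in some other alternatives, among them edgeR with the GC slope as a covariate (adjusted p = 0.0227 and 0.044). Depth limits Il5, with 61 counts over the isotype and 12 over the saline lungs, Il17a, with 55 and 0, and the saline side of Il13, with 2.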
